A study of Mus musculus with 2 samples.

Results

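The genes described here are the 9 that encode known receptors of secreted phosphoprotein 1 (SPP1, also called osteopontin): Cd44 and the 8 integrin subunit genes Itgav, Itgb1, Itgb3, Itgb5, Itga4, Itga5, Itga8 and Itga9. They were taken by symbol from the 32287 genes counted in both libraries, and all 9 were found. The question was which cell classes of muscle after nerve crush carried transcripts for SPP1 receptors, Schwann cells included, and whether the levels differed when SPP1 was neutralised. Both libraries came from hind limb muscle of male C57BL/6J mice (the strain on the labels, where the methods name S100GFP-tg mice, whose Schwann cells express GFP) aged 10 to 16 weeks whose peroneal nerves had been crushed on both sides, with tissue taken 7 days after injury. One library came from mice given a neutralising antibody against SPP1 (SPP1-nAb), and the other from mice given a goat IgG against mouse as the control (IgG). Each dose was 2 μg in 10 μL, first with the nerve crush and then again every 2 days. The tissue of several mice was pooled, and there was 1 library per condition, so differences between the libraries carry no replicate check and were not tested.

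SPP1 is a secreted, matrix-associated glycoprotein that macrophages release in quantity after tissue injury. Integrins are heterodimers of an alpha and a beta subunit, so a cell needs both transcripts to build one. The alpha v integrins with beta 1, beta 3 or beta 5, and the integrins alpha 5 beta 1 and alpha 8 beta 1, recognise an Arg-Gly-Asp motif in SPP1. Alpha 4 beta 1 and alpha 9 beta 1 bind the stretch that follows it, which thrombin cleavage exposes. CD44, best known as a receptor for hyaluronan, is a single-chain protein with many splice forms. The short reads counted here do not tell those forms apart.

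The stretch of Spp1 that encodes both integrin-binding parts is shown because 7 of the receptor pairs described below depend on it. It was read 5′ to 3′ from the GENCODE transcripts of GRCm39, with the codons for Arg-Gly-Asp in capitals. It lies in exon 6 on the plus strand, at chr5:104587347-104587376, and the motif occurs once in the 294 codons, beginning at codon 144.
Spp1 integrin-binding stretch: CGAGGTGATagcttggcttatggactgagg

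The libraries held 23779 (IgG) and 25069 (SPP1-nAb) barcodes, with 97607674 and 127719916 unique molecular identifiers (UMIs, 1 per captured transcript). After removal of poor barcodes and probable doublets, 21047 and 22282 cells remained, and 163 barcode sequences occurred in both libraries. A cell joined a class on detection of 3 or more of that class's markers and a lead of 2 or more over every other class, and 11 classes had at least 50 cells in each library. Of the cells kept, 4367 (IgG) and 4366 (SPP1-nAb) were given no class. Every listed marker was higher in its own class than in the rest in both libraries, which the gating favours. The sample titles name S100GFP-positive cells, while the protocol describes collecting live cells with and without GFP, and the measured makeup was mixed: mononuclear phagocyte-like cells were 51.6% (IgG) and 62.9% (SPP1-nAb) of the cells kept, and Schwann-like cells were 1.89% and 1.97%. Levels are CPM, the UMIs of a gene summed over a class and scaled to a class total of 1000000 UMIs, with exact 95% Poisson intervals that cover counting error only. Levels are compared between classes for the same gene, never between genes.

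Schwann-like cells, the glia that ensheath axons and turn to a repair state after nerve injury, carried most of the receptor genes. There were 398 such cells in the IgG library and 439 in the SPP1-nAb library. Itgav, the alpha v subunit gene (chr2:83554403-83637260, plus strand), had its highest level of all 11 classes there, at 314 CPM (95% interval 283 to 348) with IgG and 324 CPM (296 to 354) with SPP1-nAb. The interval of the next class, the fibro-adipogenic progenitor-like (FAP-like) cells, lay below that of Schwann-like cells in both libraries. Itgb1, which encodes the common beta 1 subunit (chr8:129411876-129460618, plus strand), stood at 979 CPM and 991 CPM in Schwann-like cells. Only pericyte- or smooth muscle-like cells were higher, at 1213 and 1214 CPM. The remaining genes were at lower points of their own range in Schwann-like cells. Cd44 was at rank 6 of the 11 classes with IgG (263 CPM) and at rank 8 with SPP1-nAb (265 CPM). Itga5 reached 72.9 and 80.9 CPM, Itga8 55.3 and 37.8 CPM, and Itgb5 26.8 and 29.8 CPM. The other 3 genes were scarce in these cells. Itgb3 gave 2 UMIs and 1 UMI in all, Itga9 gave 2 and 12 UMIs, and Itga4 gave 19 and 18 UMIs.

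**Figure D1:**
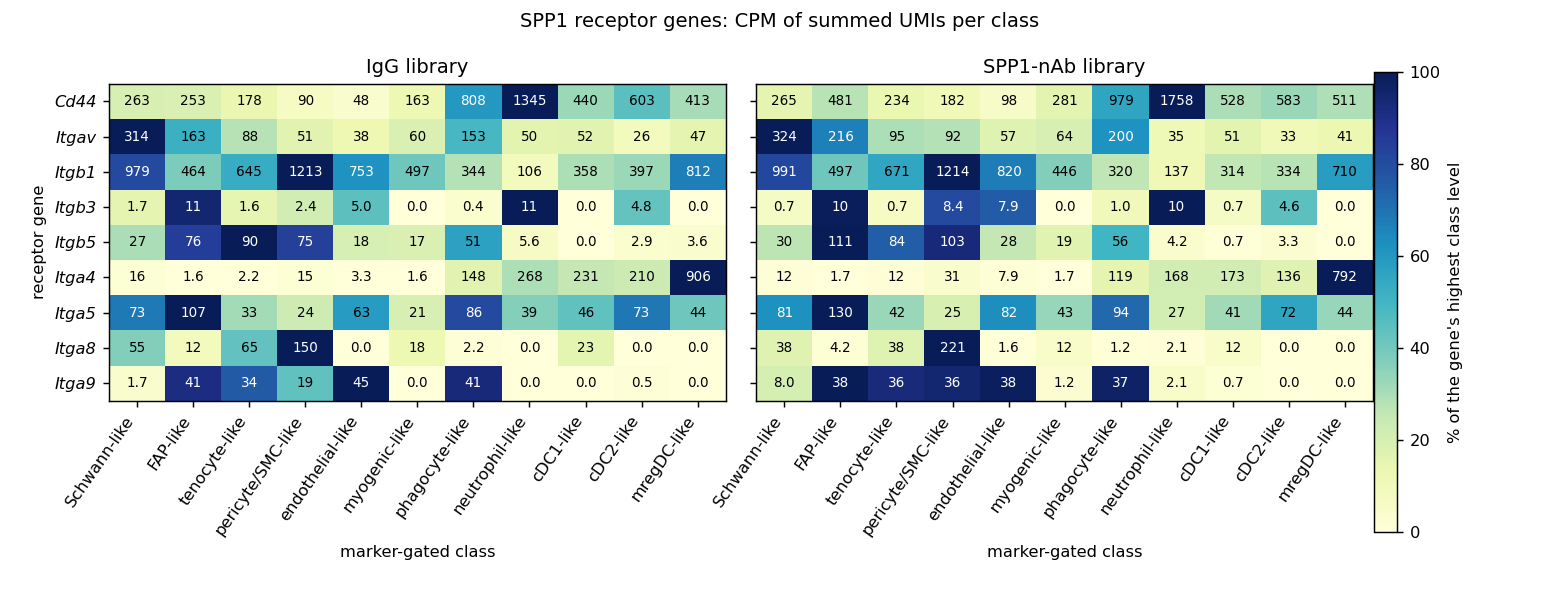
CPM of each receptor gene (rows) in each marker-gated class (columns), with the IgG library on the left and the SPP1-nAb library on the right. Colour gives the level as a percentage of that gene's highest class in the same library: Itgav is darkest in Schwann-like cells (314 and 324 CPM), Itga8 in pericyte- or smooth muscle-like cells (150.4 and 221 CPM) and Itga4 in mregDC-like cells (906 and 792 CPM).

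Cd44 (chr2:102641486-102732010, minus strand) was detected in every class and was highest in myeloid cells. Neutrophil-like cells had 1345 CPM (1180.5 to 1526) with IgG and 1758 CPM (1641 to 1880) with SPP1-nAb. Mononuclear phagocyte-like cells followed with 808 and 979 CPM, and cDC2-like dendritic cells with 603 and 583 CPM. The intervals of these 3 classes did not overlap one another in either library. Many of their cells lay at the edge of the gate, with just 3 markers or a lead of just 2. These were 60.3% and 58.1% of neutrophil-like and 47.9% and 49.3% of cDC2-like cells. The gate took 141 and 322 neutrophil-like cells, where a cluster led by S100a9, S100a8 and Retnlg held 548 and 1228. In the stromal classes the levels were lower: FAP-like cells had 253 and 481 CPM, tenocyte-like cells 178 and 234 CPM, and myogenic-like cells 163 and 281 CPM. Endothelial-like cells were lowest, at 47.9 and 97.6 CPM, where up to 17.9 and 26.5 CPM could have come from free RNA. With IgG, the levels of Schwann-like and FAP-like cells had overlapping intervals, so their order was not resolved. Because mononuclear phagocyte-like cells were so many, 71.6% and 77.6% of all Cd44 UMIs were in them, against 0.616% and 0.431% in Schwann-like cells.

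**Figure D2:**
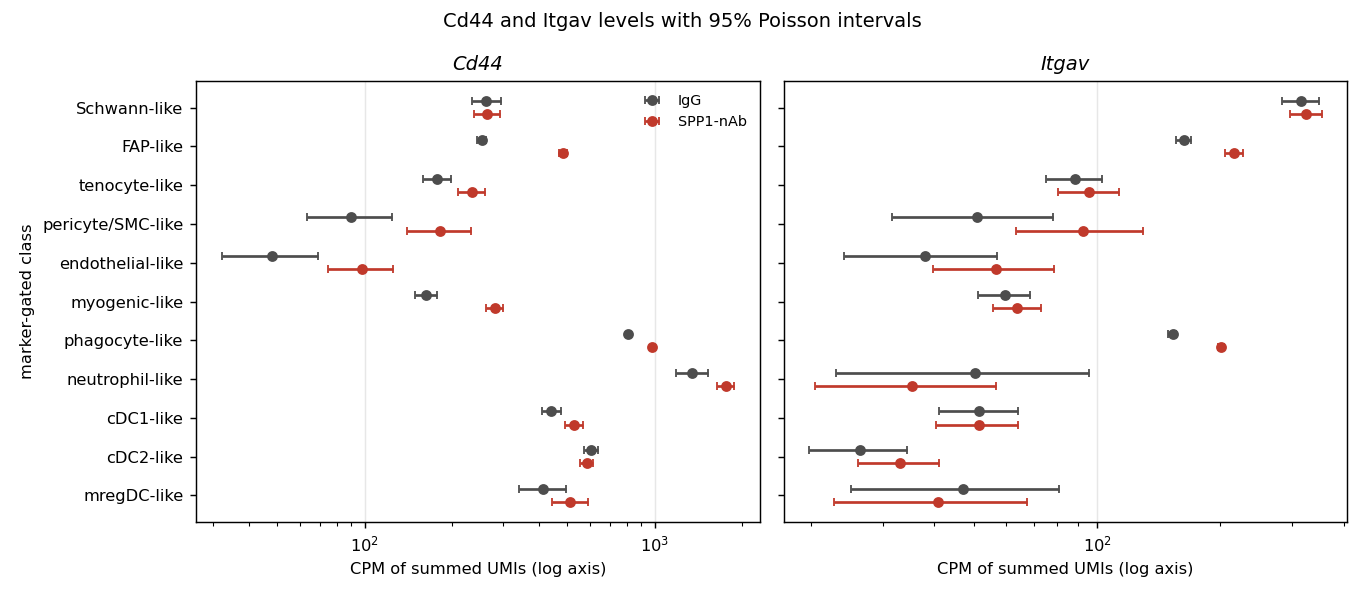
CPM of Cd44 (left) and Itgav (right) on log axes in the 11 classes, grey for IgG and red for SPP1-nAb, with exact 95% Poisson intervals. Cd44 is highest in neutrophil-like cells (1345 and 1758 CPM), whereas Itgav is highest in Schwann-like cells (314 and 324 CPM).

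The partners of alpha v were spread differently. Itgb1 was found in all classes, with neutrophil-like cells lowest at 106 and 137 CPM. Itgb5, the beta 5 subunit gene (chr16:33649988-33771137, plus strand), was a stromal and phagocyte gene. Its levels were 76.1 and 111 CPM in FAP-like cells, 89.9 and 83.6 CPM in tenocyte-like cells, 75.2 and 103 CPM in pericyte- or smooth muscle-like cells, and 51.2 and 55.9 CPM in mononuclear phagocyte-like cells. The first 3 of these had overlapping intervals with IgG. In cDC1-like cells Itgb5 gave 0 UMIs with IgG and 1 UMI with SPP1-nAb. Itgb3, the beta 3 subunit gene of the integrin prominent on platelets and osteoclasts (chr11:104498826-104561302, plus strand), was scarce in every class. The one class with more than 100 UMIs in a library was FAP-like, with 133 UMIs (10.6 CPM) in IgG and 77 UMIs (10.3 CPM) in SPP1-nAb. Myogenic-like cells had no Itgb3 UMI in either library, which allows up to 1.19 and 1.07 CPM as the upper interval bounds.

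Among the alpha subunits, Itga4 was mainly in myeloid cells, and Itga8 had its highest levels in pericyte- or smooth muscle-like, tenocyte-like and Schwann-like cells. Other, larger classes also held many of the Itga8 UMIs. FAP-like cells had 19.4% (IgG) and 6.33% (SPP1-nAb) of them and mononuclear phagocyte-like cells 12.1% and 17.8%, against 8.17% and 11.6% in Schwann-like cells. The Itga8 level in mononuclear phagocyte-like cells was only 2.17 and 1.19 CPM. Itga4 encodes the alpha 4 subunit used by leukocytes (chr2:79085660-79163467, plus strand). It was highest in mregDC-like cells, the mature dendritic cells, at 906 CPM (797 to 1025) with IgG and 792 CPM (703 to 888) with SPP1-nAb. The next classes were neutrophil-like (268 CPM) with IgG and cDC1-like (173 CPM) with SPP1-nAb, and neither interval reached that of mregDC-like cells. In FAP-like cells (1.59 and 1.74 CPM) and myogenic-like cells (1.61 and 1.74 CPM) Itga4 was at about the level that free RNA could give (1.41 to 1.90 CPM). Itga8, whose product is known from smooth muscle and mesangial cells (chr2:12110900-12307214, minus strand), was highest in pericyte- or smooth muscle-like cells, at 150.4 CPM (115 to 193) and 221 CPM (175 to 275). Tenocyte-like cells (64.8 and 38.3 CPM) and Schwann-like cells (55.3 and 37.8 CPM) came next, with overlapping intervals. No Itga8 UMI was found in cDC2-like or mregDC-like cells.

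Itga5, detected in all classes, encodes the alpha 5 subunit of the classical fibronectin receptor (chr15:103252713-103275270, minus strand). FAP-like cells had the highest level, at 107 CPM (101 to 112) and 129.5 CPM (122 to 138), above the intervals of all other classes. Mononuclear phagocyte-like, Schwann-like, cDC2-like and endothelial-like cells lay between 62.7 and 93.6 CPM. Itga9, the alpha 9 subunit gene (chr9:118435722-118730072, plus strand), was well detected in some classes and almost missing from others. Pericyte- or smooth muscle-like cells had 19.4 and 36.4 CPM from 8 and 13 UMIs. FAP-like, tenocyte-like, endothelial-like and mononuclear phagocyte-like cells had 33.8 to 44.6 CPM with IgG and 35.5 to 38.5 CPM with SPP1-nAb, with overlapping intervals. In neutrophil-like, cDC1-like, cDC2-like, mregDC-like and myogenic-like cells, the gene gave at most 4 UMIs per class in either library.

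Because an integrin needs both chains, the cells with a UMI of both subunit genes were counted after each cell had been thinned to 2000 UMIs. The shallower cells were left out, which removed 81 of 398 and 56 of 439 Schwann-like cells, and too few neutrophil-like cells (3 and 23) were left to describe. The pair for alpha v beta 1 was found in 40.4% (exact binomial 95% interval 34.9 to 46.0) of Schwann-like cells with IgG and 38.6% with SPP1-nAb, the highest share of the classes at this depth. FAP-like cells followed with 13.7% and 20.5%, and cDC2-like cells, low in Itgav, had 2.86% and 3.15%. Without thinning the shares were 48.7% and 54.7% in Schwann-like cells and 41.1% and 65.3% in the deeper FAP-like cells (median 4950.5 and 8014 UMIs against 2816 and 3254), so the place of Schwann-like cells in the SPP1-nAb library held at equal depth only. The pair for alpha 4 beta 1 was found in 55.2% and 45.3% of mregDC-like cells, and the pair for alpha 8 beta 1 in 20.9% and 30.9% of pericyte- or smooth muscle-like cells. The alpha v beta 3 pair was in 0 of 317 and 0 of 383 Schwann-like cells, which allows shares of up to 0.946% and 0.783% when 0 is read as at most 3 cells (exact binomial upper bounds 1.16% and 0.959%). Without thinning the pair was in 0.503% of Schwann-like cells with IgG.

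**Figure D3:**
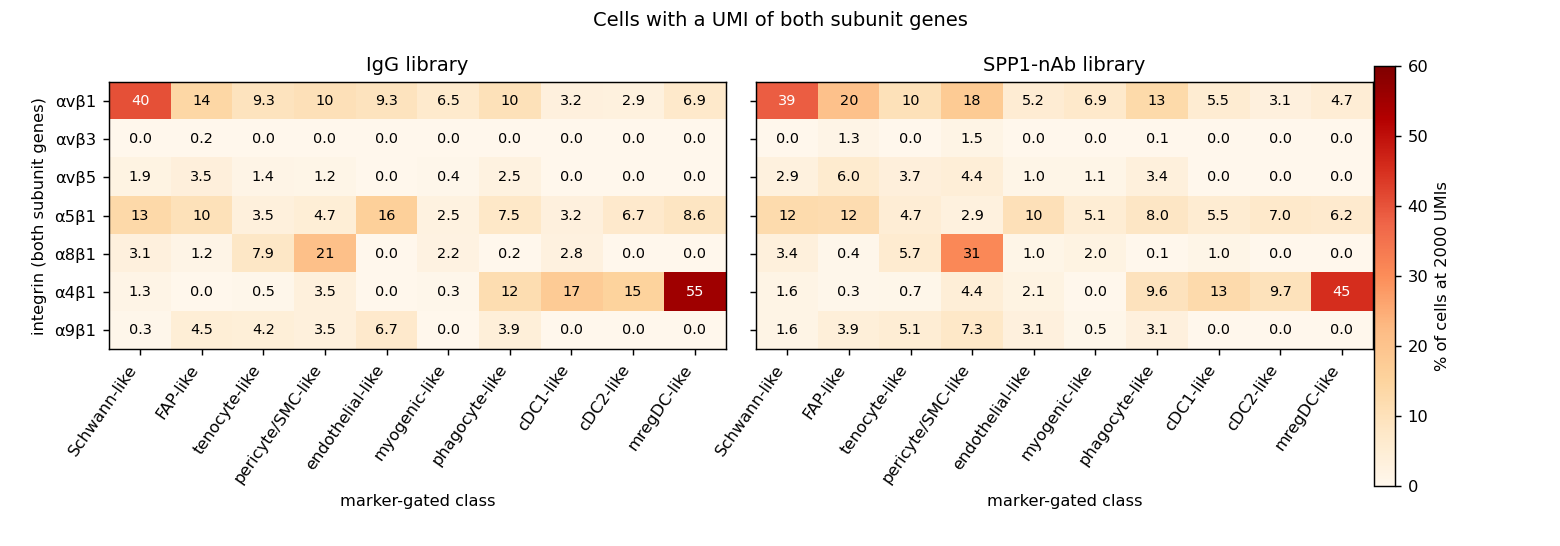
Percentage of cells with a UMI of both subunit genes of an integrin (rows) in 10 classes (columns) after thinning to 2000 UMIs, for the IgG (left) and SPP1-nAb (right) libraries. Schwann-like cells stand out for alpha v beta 1 (40.4% and 38.6%), mregDC-like cells for alpha 4 beta 1 (55.2% and 45.3%) and pericyte- or smooth muscle-like cells for alpha 8 beta 1 (20.9% and 30.9%).

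Cd44 and the 7 integrin pairs were then counted together. At 2000 UMIs, 73.3% and 80.9% of mononuclear phagocyte-like cells had Cd44 or a whole pair, as did 74.1% and 78.1% of mregDC-like cells and 68.1% and 67.1% of Schwann-like cells. FAP-like cells had 44.6% and 63.2%, and pericyte- or smooth muscle-like cells had 47.7% and 67.6%. The lowest shares were in endothelial-like cells (29.3% and 37.5%) and myogenic-like cells (29.5% and 42.0%). The endothelial-like shares rest on the deepest cells only, 75 and 96 of them, because thinning left out 278 of 353 and 199 of 295. Without thinning the shares were 17.6% and 27.5% in endothelial-like and 38.3% and 63.1% in myogenic-like cells. They were then 72.1% and 91.6% in the deeper FAP-like cells and 69.8% and 78.8% in Schwann-like cells. FAP-like cells thus lay below Schwann-like cells at equal depth only. Free RNA can add to these shares: a Cd44 UMI was in 9.33% and 18.8% of endothelial-like cells, where up to 17.9 of 47.9 and 26.5 of 97.6 CPM could be free RNA. At 2000 UMIs the basis differed between classes. In Schwann-like cells 50.2% and 49.3% of cells had an integrin pair and 38.8% and 38.1% had a Cd44 UMI. In mononuclear phagocyte-like cells 26.8% and 27.1% had a pair and 64.3% and 74.3% had Cd44. Without thinning a pair was in 56.0% and 66.7% of Schwann-like and 53.7% and 63.5% of mononuclear phagocyte-like cells. The wide gap in pairs was thus seen at equal depth only. A share at 2000 UMIs counts only transcripts that were sampled, and cells below it may express the gene.

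Spp1 itself (chr5:104582165-104589235, plus strand) was mainly a phagocyte transcript, at 891 CPM with IgG and 1219.5 CPM with SPP1-nAb, and 91.1% and 94.0% of its UMIs were in mononuclear phagocyte-like cells. The source cells carried receptor genes too. Among mononuclear phagocyte-like cells thinned to 2000 UMIs, Cd44 was found in 72.5% of 2143 cells with a Spp1 UMI and 62.0% of 7884 cells without one (IgG), and in 77.7% and 72.8% with SPP1-nAb. Itgav followed the same direction, at 30.4% against 18.9% and 32.5% against 24.9%. Itga4 went the other way, at 17.4% against 26.3% and 15.6% against 22.4%. These are shares of cells within each library, not of animals.

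The divisions of the phagocytes differed in which receptor genes they carried. Monocyte-like cells had the highest Cd44, at 1102 and 1246 CPM, and resident macrophage-like cells the lowest, at 483 and 635 CPM. Itgav was highest in lipid-handling phagocyte-like cells (198 and 234 CPM), the division that also held most Spp1 (1962 and 1979 CPM). Itga9 was lowest in monocyte-like cells (18.0 and 13.1 CPM) and was 56.5 and 56.2 CPM in resident macrophage-like cells. Schwann-like cells were divided by a UMI of Reln, a gene that led one of their 2 clusters. Cells without it had 99 and 74.0 CPM of Itga8 and 104 and 112 CPM of Itga5. Cells with it had 8.65 and 2.62 CPM of Itga8, from 5 and 2 UMIs, and 39.8 and 51.0 CPM of Itga5. Itgav (304 and 288 CPM with Reln, 323 and 362 CPM without) was in both kinds of Schwann-like cell.

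Between the libraries, 63 of the 99 pairs of a receptor gene and a class had at least 50 UMIs. Of these, 7 were past 1.5-fold higher with SPP1-nAb and 7 past 1.5-fold lower. Over all genes, 6.14% of 71029 pairs were past 1.5-fold higher and 7.29% past 1.5-fold lower. The receptor pairs past the line were 11.1% in each direction, from counts too small for a closer reading. Of the higher pairs, 4 were Cd44, in FAP-like, endothelial-like, pericyte- or smooth muscle-like and myogenic-like cells. Among the genes with at least 50 UMIs in all 11 classes, 1.11% (10 of 900, Cd44 included) were that much higher in at least 4 classes. Of the lower pairs, 5 were Itga8, in FAP-like, tenocyte-like, mononuclear phagocyte-like, cDC1-like and myogenic-like cells. The other 2 were Itga4, in neutrophil-like and cDC2-like cells. Itga8 in mononuclear phagocyte-like cells stood at only 2.17 and 1.19 CPM, from 98 and 87 UMIs.

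In Schwann-like cells none of the 6 receptor genes with enough UMIs was past 1.5-fold in either direction (with cells weighted equally Itga8 was, at -0.65), where 3.62% of 6870 genes were past it upward and 3.93% downward. The log2 ratio of SPP1-nAb over IgG was 0.01 (exact 95% counting interval -0.21 to 0.23) for Cd44, 0.05 (-0.15 to 0.24) for Itgav and 0.02 (-0.09 to 0.13) for Itgb1. Itgb5 and Itga5 both had a log2 ratio of 0.15 with wider intervals (-0.53 to 0.86 and -0.26 to 0.56). The interval lay inside the 1.5-fold lines for 4 of these genes and reached past them for Itgb5. Itga8 had the largest shift of the 6, at -0.55 (-1.09 to -0.02). Spp1 in the same cells went from 85.4 to 39.8 CPM (log2 ratio -1.10), of which up to 9.23 and 19.3 CPM could be free RNA. It stood at 144 and 48.4 CPM in cells with a Reln UMI and at 30.8 and 30.9 CPM in cells without. At 2000 UMIs a Spp1 UMI was in 5.99% and 4.18% of Schwann-like cells, with overlapping intervals, and without thinning in 6.78% and 6.38%. In other classes Spp1 was past 1.5-fold higher: FAP-like (49.0 and 92.1 CPM), myogenic-like (68.2 and 163 CPM) and neutrophil-like cells (61.4 and 174 CPM, from 11 and 84 UMIs).

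**Figure D4:**
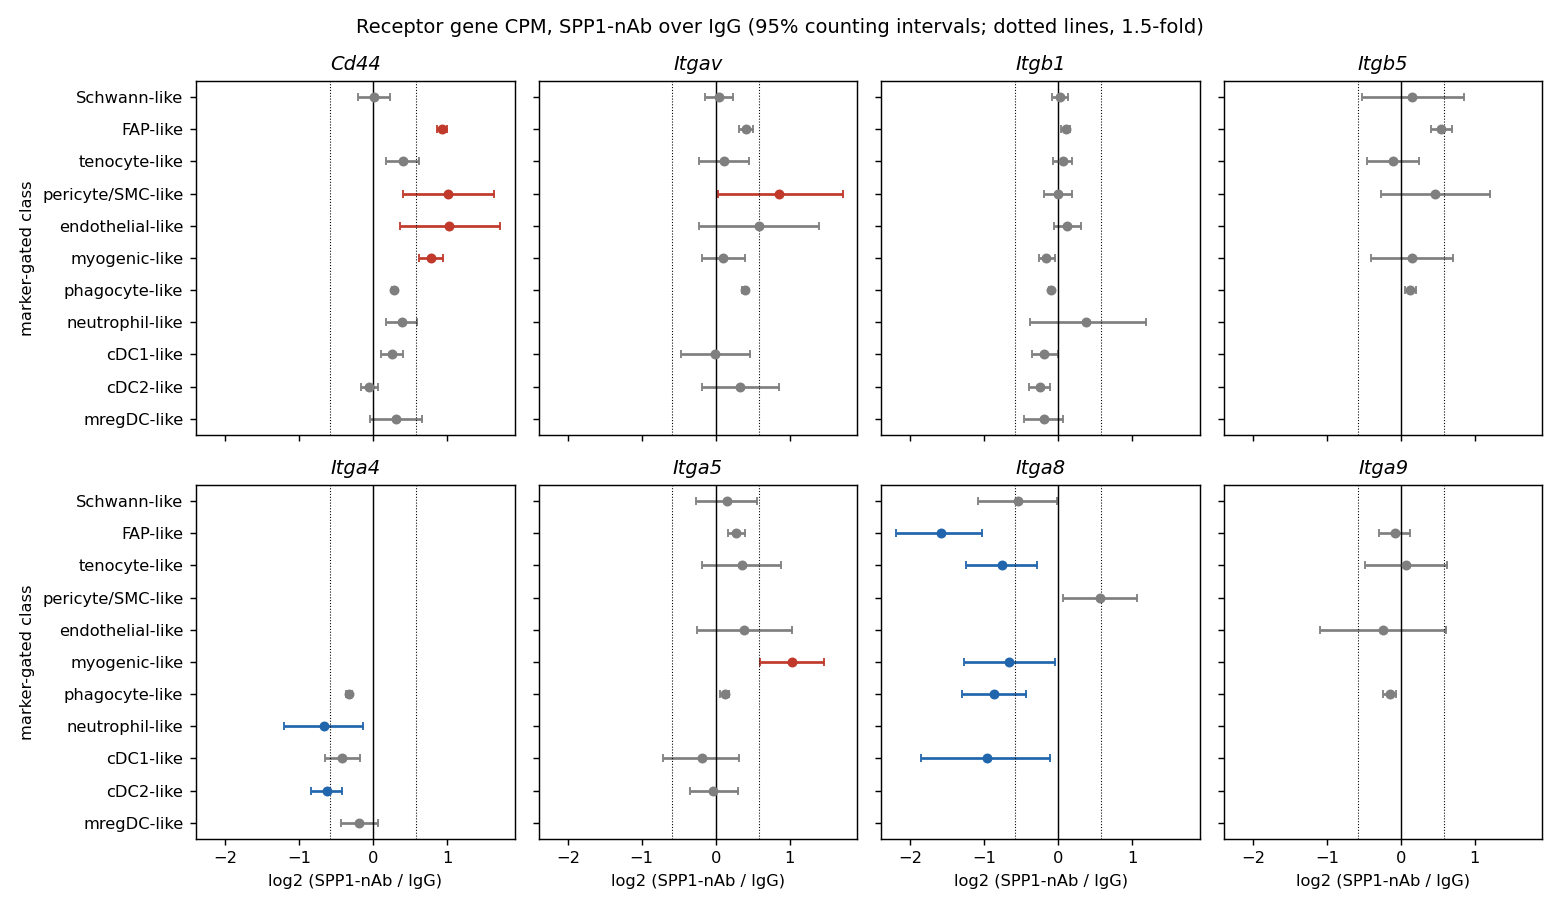
Log2 ratio of CPM, SPP1-nAb over IgG, for 8 receptor genes in the classes with at least 50 UMIs, with exact 95% counting intervals, dotted lines at 1.5-fold, red for past it upward and blue for past it downward. In Schwann-like cells all 6 points lie between the lines, while Cd44 lies past the upper line in 4 classes (for example 0.93 in FAP-like cells) and Itga8 past the lower line in 5 (for example -1.59 in FAP-like cells).

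FAP-like cells, the mesenchymal progenitors that lay down matrix in injured muscle, had the difference in Cd44 that rested on the most UMIs outside the phagocytes. The level was 253 CPM (3175 UMIs in 2328 cells) with IgG and 481 CPM (3598 UMIs in 940 cells) with SPP1-nAb, a 1.91-fold difference (1.82 to 2.00), of which up to 7.59 and 13.5 CPM could be free RNA. Cd44 and Itga8 were the 2 of 8 receptor genes compared there that were past 1.5-fold, against 6.34% of 11900 genes upward and 8.67% downward. The makeup of the class differed between the libraries as well. A cluster led by C7, Inmt and Pi16 held 61.3% of FAP-like cells with IgG and 32.0% with SPP1-nAb. A cluster led by Postn, Cthrc1 and Cxcl14 held 19.7% and 61.1%. Cd44 was 203 and 431 CPM in the first (log2 ratio 1.09, 0.97 to 1.21) and 431 and 497 CPM in the second (0.21, 0.11 to 0.30). A cluster led by Sdk1, Opcml and Gpc6 held 61 and 56 cells, of which 20 and 18 were FAP-like by the gates. In those FAP-like cells Cd44 was 538 and 2084 CPM (1.95, 1.39 to 2.55). In the cluster led by Tenm2, Gpc3 and Apod (182 and 42 FAP-like cells) it was 128 and 184 CPM (0.53, -0.12 to 1.14). In that led by Kcnb2, Dlk1 and Smoc2, low in Cd44 (60.1 CPM with IgG), there were 239 and 5 FAP-like cells. How much of the class difference lay in these shares was not tested.

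Itga8 in FAP-like cells went from 12.5 to 4.15 CPM, from 157 to 31 UMIs. Of the 157 UMIs with IgG, 91 were in a cluster led by Kcnb2, Dlk1 and Smoc2, which had 239 FAP-like cells with IgG and 5 with SPP1-nAb. In the C7 and Postn clusters Itga8 was scarce in both libraries, at 4.98 and 0.920 CPM and at 8.58 and 4.95 CPM. The other receptor genes differed less in FAP-like cells. The log2 ratios were 0.55 for Itgb5, 0.41 for Itgav, 0.28 for Itga5, 0.10 for Itgb1, -0.04 for Itgb3 and -0.08 for Itga9. The median UMI count per FAP-like cell was 4950.5 with IgG and 8014 with SPP1-nAb, and its part in these values was not tested beyond the scaling to CPM.

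Myogenic-like cells, the satellite cells and myoblasts, had 163 CPM of Cd44 with IgG and 281 CPM with SPP1-nAb (log2 ratio 0.78, 0.62 to 0.94). In the cluster led by Pax7, Myf5 and Pde1c, which held most of them in both libraries, Cd44 was 172 and 287 CPM (0.73, 0.54 to 0.93). In the cluster led by Myog it was 233 and 263 CPM (0.18, -0.16 to 0.52). The cluster led by Hs6st3 and Tenm4 held 204 and 329 cells, of which only 18 and 19 were myogenic-like by the gates. In those gated cells Cd44 was 932 and 732 CPM (-0.35, -1.17 to 0.45). A cluster led by Nppc, Gal and Pde10a, with Cd44 at 43.0 CPM with IgG, held 303 myogenic-like cells with IgG and 10 with SPP1-nAb. Itga5 was also past 1.5-fold higher, at 21.2 and 43.2 CPM (log2 ratio 1.03, 0.60 to 1.47). At the edge of the gate, with just 3 markers or a margin of just 2, lay 58.1% and 52.8% of myogenic-like cells. Up to 10.2 and 15.6 CPM of their Cd44 could be free RNA. The gate took 967 and 623 myogenic-like cells, where the Pax7 cluster alone held 1280 and 1257 cells and the Nppc cluster 918 and 35.

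**Figure D5:**
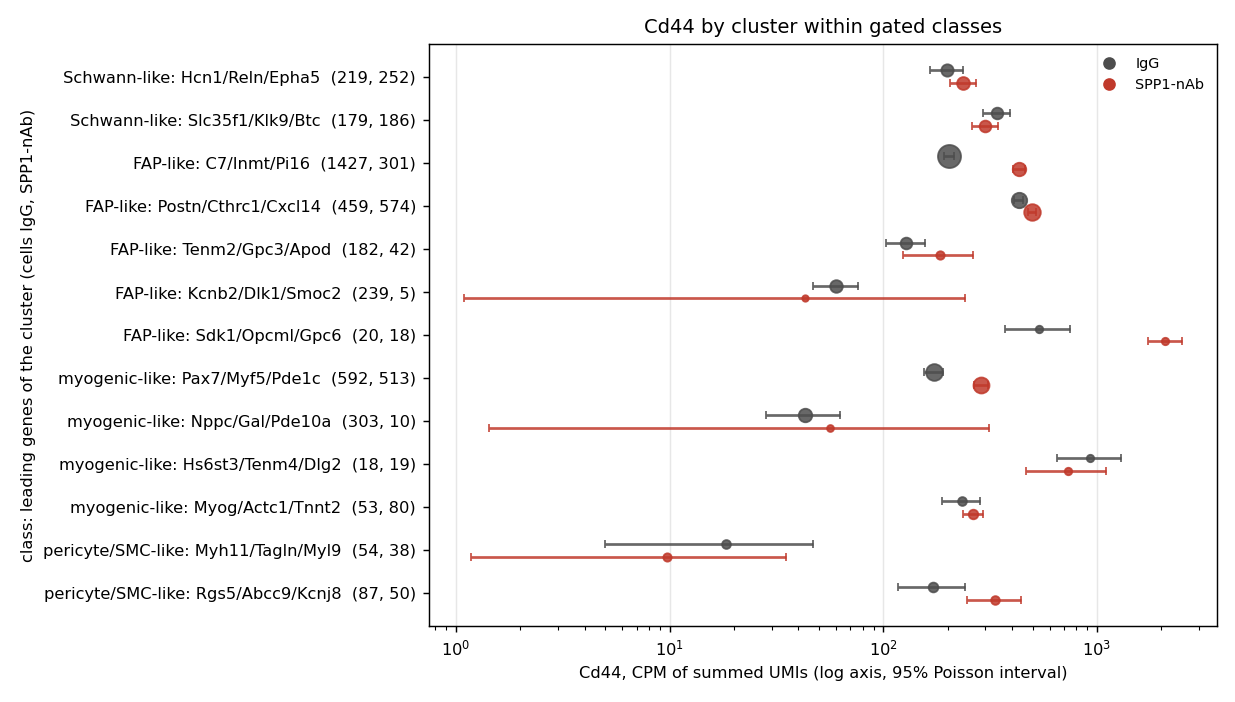
Cd44 CPM on a log axis with exact 95% Poisson intervals in the clusters (named by class and leading genes) that hold the cells of 4 gated classes, grey for IgG and red for SPP1-nAb. Brackets give the numbers of gated cells in each cluster, and larger points stand for more of them. FAP-like cells of the C7 cluster sit at 203 and 431 CPM, those of the Postn cluster at 431 and 497 CPM, and the Schwann-like clusters overlap between the libraries.

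The vascular classes had few Cd44 UMIs. Pericyte- or smooth muscle-like cells gave 37 UMIs (89.7 CPM) with IgG and 65 UMIs (182 CPM) with SPP1-nAb, with a log2 ratio of 1.02 (0.41 to 1.64). The pericyte cluster led by Rgs5, Abcc9 and Kcnj8 held 32 and 48 of these Cd44 UMIs, with a log2 ratio of 0.96 (0.29 to 1.65) within it. The smooth muscle cluster led by Myh11, Tagln and Myl9 held 4 and 2. Of the 142 and 91 gated cells, the pericyte cluster held 87 and 50 and the smooth muscle cluster 54 and 38. The rest of the Cd44 UMIs, nearly all from the SPP1-nAb library, were in the few gated cells outside both clusters. Their part in the class ratio was not tested. Most Itga8 UMIs of the class were in the smooth muscle cluster (57 and 78 UMIs). Itgav was past 1.5-fold in the same class from 21 and 33 UMIs (0.86, 0.03 to 1.72), and was 0.58, not past it, when no barcodes were removed as probable doublets. Endothelial-like cells had 29 and 62 Cd44 UMIs (log2 ratio 1.03, 0.37 to 1.72). With no such removal the endothelial ratio was 0.37 and no longer past 1.5-fold.

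In the myeloid classes no Cd44 ratio was past 1.5-fold. Cd44 differed by 0.28 (0.26 to 0.29) in mononuclear phagocyte-like cells. Their makeup also differed, with 2917 and 1828 resident macrophage-like and 3188 and 6824 lipid-handling cells, and within the divisions the Cd44 ratio was 0.18 to 0.39. It differed by 0.39 (0.18 to 0.60) in neutrophil-like cells, and by -0.05 (-0.16 to 0.06) in cDC2-like cells. Itgav in resident macrophage-like cells was 86.3 and 147 CPM, a log2 ratio of 0.77 (0.64 to 0.89), where monocyte-like cells had -0.06 (-0.16 to 0.04). Itga4 was lower in all 5 myeloid classes. The log2 ratios were -0.67 in neutrophil-like, -0.63 in cDC2-like, -0.42 in cDC1-like, -0.32 in mononuclear phagocyte-like and -0.19 in mregDC-like cells, and the interval of the last (-0.44 to 0.06) included 0. With clusters in place of gates the ratio in neutrophil-like cells was -0.13 and that in cDC2-like cells -0.49, neither past 1.5-fold. The clusters named cDC2-like were mixed by the gates. Of the gated cells, 70.3% were cDC2-like in the larger one, and 66.9% were mononuclear phagocyte-like in one led by Hist1h1b, Pclaf and Top2a (145 and 185 cells). Itgb3 in mononuclear phagocyte-like cells was past 1.5-fold (17 and 74 UMIs) but stood at 0.376 and 1.01 CPM.

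The other genes of the pathway were taken from a list of 39: further integrin partners, proteases that cut SPP1 or CD44, other ligands of the same receptors, adhesion adaptors and CD44 linkers. They made 200 pairs with a class with at least 50 UMIs, of which 30 (15%, against 6.14% of all pairs) were past 1.5-fold higher and 16 (8.0%, against 7.29%) past 1.5-fold lower with SPP1-nAb. The further integrin partners had 8 of 36 pairs higher and 6 lower, the proteases 8 of 27 higher and 2 lower, and the other ligands 11 of 39 higher and 3 lower. The adaptors had 2 of 68 higher and 4 lower, and the CD44 linkers 1 of 30 higher and 1 lower. In Schwann-like cells Fn1, the fibronectin gene, was higher (20.9 and 43.8 CPM, with up to 9.67 and 14.0 CPM from free RNA) and Itga2, a collagen-binding alpha subunit gene, was lower (94.6 and 61.7 CPM). Itgb8, which encodes another partner of alpha v, was at 746 and 714 CPM in Schwann-like cells. Its next highest level was 68.8 CPM with IgG, in mregDC-like cells, from 19 UMIs. In FAP-like cells 10 of the 33 genes of the list with enough UMIs were higher (against 6.34% of all genes there), among them Mmp3, a matrix protease (196 and 544 CPM), Tnc, the tenascin C gene (92.5 and 227 CPM), Postn (1242 and 2198 CPM), Vcam1, which encodes a ligand of alpha 4 beta 1 (77.7 and 119 CPM), and Itgb6 (8.35 and 36.3 CPM). Itga2 was lower there, at 14.1 and 5.62 CPM. Postn and Mmp3 are among the leading genes of the Postn cluster, whose share of FAP-like cells was 19.7% and 61.1%, and the part of that share in these values was not tested.

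For each receptor gene, the genes whose levels were most alike over the 22 points (11 classes in 2 libraries) were found among 6866 genes by Pearson's r of log2(CPM + 10). The points share libraries and differ in depth, so r is a description only. Itga4 was nearest to Bcl2a1d (r = 0.975), an anti-apoptotic gene of leukocytes. Itgb5 was nearest to Arhgap10 (0.954), and Mmp14, a membrane-bound matrix protease, was next (0.904). Itgb1 was nearest to Ktn1 (0.937), Itga8 to Daam2 (0.909), Cd44 to Atp6v0d1 (0.891), a subunit gene of the proton pump of lysosomes, Itgav to Igf2bp2 (0.883), and Itga9 to Lpl (0.882), the lipoprotein lipase gene. The nearest genes to Itgb3 (Irak3) and Itga5 (Zmiz1) were both at 0.822.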

How the data were processed

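Single-cell libraries were analysed, 2 in all and 1 per condition. The deposited values are raw UMI counts per gene and barcode, which the authors made with CellRanger (version 8.0.0 in the processing notes, 9.0.1 in the file headers) on GRCm39. Barcodes needed over 200 detected genes and a mitochondrial share of UMIs below 10% to enter, and the 10% with the highest doublet score, from comparison with simulated doublets, were removed per library. Cells were gated on 6 to 8 markers per class, the gates' thresholds and the divisions by Reln or by cluster having been set after the data were seen. The receptor genes and all lists were chosen with earlier results of these data known. UMIs were summed per class and library and scaled to CPM. Pairs with 50 UMIs or more over both libraries were compared against a 1.5-fold line, and genes were named when past it or highest in a class. Free RNA was bounded from C1q and collagen genes. Clusters were found with leidenalg 0.10.2 without the receptor genes and Spp1. Gating, thinning and intervals were tried on data simulated from the class profiles with counting error only. Such data lack the spread of real cells and libraries, so they cannot show how the gates and intervals deal with it. Labels give C57BL/6J as the strain and name the muscles TA and GTN, while the methods name S100GFP-tg mice and the TA. The kit's read end was not given in the sources used here. Gene positions and sequence come from GENCODE M39.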

Additional observations from a re-analysis of the deposited data

Results flagged for a closer look

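Plasmacytoid dendritic (pDC-like) cells, too few for the comparisons (22 cells with IgG and 33 with SPP1-nAb), had the highest Itgb3 level found in any class, at 62.5 CPM with IgG and 38.6 CPM with SPP1-nAb. Each value rests on 5 UMIs, and the counting intervals reach down to 20.3 and 12.5 CPM. The highest level in the 11 classes described was 11.2 CPM, from 2 UMIs in neutrophil-like cells with IgG, and its interval (1.35 to 40.3 CPM) overlaps these.

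Itga8 went in opposite directions in different classes. Its log2 ratio of SPP1-nAb over IgG was 0.56 in pericyte- or smooth muscle-like cells and -1.59 in FAP-like cells, with counting intervals on either side of 0. With clusters in place of gates the first ratio was 0.19, and in the whole smooth muscle cluster it was 0.14 (-0.23 to 0.50). With 1 library per condition this difference was not tested.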

How the results depend on the processing

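There was 1 library per condition, so no library could be left out. For the same reason no paired analysis was possible, and the labels give no replicate numbers. The 63 ratios were recomputed under 11 alternatives (693 values), of which 670 stayed within the main counting interval and none of the 14 called pairs changed sign. Of those pairs, 7 kept the call under all 11 alternatives (Cd44 in FAP-like, pericyte- or smooth muscle-like and myogenic-like cells, Itga5 in myogenic-like cells and Itga8 in FAP-like, tenocyte-like and mononuclear phagocyte-like cells). No alternative was aimed at the few cells that held most Cd44 UMIs of the pericyte- or smooth muscle-like class. Itga8 in myogenic-like cells lost it under 5 (to -0.15 with cells weighted equally), Itga4 in neutrophil-like and cDC2-like cells under 3 each, and Itgav in pericyte- or smooth muscle-like cells under 5, in 4 of which too few UMIs remained. Of the 49 pairs not called, 9 passed the line under at least 1 alternative, among them Itgav in endothelial-like cells under 5. In Schwann-like cells Cd44 ranged from -0.03 to 0.15, Itgav from 0.01 to 0.13 and Itgb1 from -0.02 to 0.04.

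With a margin of 3 markers the lower pairs were 4 and the Cd44 ratio was 0.29 in mononuclear phagocyte-like, 0.77 in neutrophil-like and -0.35 in cDC2-like cells. Cd44 in mononuclear phagocyte-like cells was 0.30 without doublet removal, 0.25 with 20% removed, 0.38 with clusters and 0.32 with cells weighted equally. For every gene, the cluster value in this class covered fewer kinds of phagocyte than the gate. It left out clusters that the markers did not name, though nearly all gated cells in several of them were mononuclear phagocyte-like. Among these was the cluster led by Mmp12, Spp1 and F7 (1158 and 2952 cells). In FAP-like cells Cd44 was 1.17 with 20% removed and 1.13 with cells weighted equally, and in myogenic-like cells 1.02 with clusters and 0.97 with cells weighted equally. The cause of these shifts was not tested. Of the 27 genes nearest in pattern, 8 were among the nearest 3 by Spearman correlation.

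Shares of cells follow depth by construction. With 1000 UMIs a Cd44 UMI was found in 18.6% and 23.8% of Schwann-like, 14.9% and 31.4% of FAP-like and 46.1% and 55.2% of mononuclear phagocyte-like cells, and without thinning in 50.3% of Schwann-like cells with SPP1-nAb, in 43.5% and 76.3% of FAP-like and in 78.1% and 89.0% of mononuclear phagocyte-like cells. The Itgav and Itgb1 pair was at 16.5% and 18.5%, 4.33% and 7.14%, and 3.74% and 4.42% of the same classes with 1000 UMIs, and at 48.7% and 54.7%, 41.1% and 65.3%, and 25% and 36.2% without thinning. Without doublet removal Cd44 was in 66.0% and 75.9% of mononuclear phagocyte-like cells. The depth of endothelial-like cells (median 1323 and 1436 UMIs) and neutrophil-like cells (1227 and 1366) limits their shares most.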

Other observations

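The lymphoid and plasmacytoid cells, left out above for their small numbers, carried receptor genes too. T or NK-like cells (36 with IgG and 63 with SPP1-nAb) had Itgb1 at 751 and 748 CPM, Itga4 at 252 and 319 CPM and Itgav at 97.1 and 99.2 CPM, with Cd44 at 110 and 150.3 CPM. In pDC-like cells Cd44 was 525 and 478 CPM and Itga4 338 and 208 CPM, and no UMI of Itgb5, Itga8 or Itga9 was found in either library. Nerve-sheath fibroblast-like cells (15 and 5) gave at most 22 UMIs of any receptor gene per library. A cluster with the same markers, led by Tenm2, Gpc3 and Apod, held 263 and 86 cells, of which 182 and 42 were FAP-like by the gates, and had Itga5 at 228 and 139.9 CPM, Itgb1 at 477 and 617 CPM and Itgav at 139.8 and 223 CPM.

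The spread of Cd44 over cells differed between classes. The tenth of FAP-like cells with the most Cd44 UMIs held 57.7% of them with IgG and 39.3% with SPP1-nAb, and in myogenic-like cells 67.5% and 46.7%. In Schwann-like cells the values were 45.2% and 40.4%, and in cDC2-like cells 35.3% and 36.7%. These shares also follow the depth per cell and the number of Cd44 UMIs.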
